A study of Homo sapiens with 4 samples.

Results

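The expression of 10 genes that control the passage of a cell through the G1 phase was examined in RNA-seq data of SK-N-SH cells, a neuroblastoma cell line. The 10 genes were given by name: the D-type cyclins *CCND1*, *CCND2* and *CCND3*, the cyclin-dependent kinases *CDK4* and *CDK6*, the kinase inhibitors *CDKN1B*, *CDKN1C* and *CDKN2C*, the retinoblastoma gene *RB1* and the transcription factor *E2F1*. All 10 were listed among the 57820 genes of the table, and 9 of them passed the filter on low counts. The study asked which mRNAs respond to the long noncoding RNA *RP5-998N21.4*. It compared 2 libraries of cells transduced with an empty lentivirus vector (vector control) with 2 libraries of cells transduced with a lentivirus that carries the *RP5-998N21.4* cDNA behind an EF1a promoter (OE). Both groups share the SK-N-SH cell line and the lentiviral vector, and only the control titles read WT. Nothing in the labels says whether the 2 libraries of a group came from separate transductions, so the p-values measure the spread between these libraries, which may be technical.

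D-type cyclins bind CDK4 or CDK6, and the active kinase phosphorylates the retinoblastoma protein, which then releases E2F transcription factors to switch on the genes of DNA replication. The product of *CDKN2C*, p18INK4c, binds CDK4 and CDK6 themselves, whereas the products of *CDKN1B* (p27Kip1) and *CDKN1C* (p57Kip2) bind cyclin-CDK complexes. In neuroblastoma this pathway is known for amplification or high expression of *CCND1* and *CDK4*, and p27Kip1 and p57Kip2 are known for cell cycle exit during neuronal differentiation.

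Depth was 23785164 and 24098041 counts for the controls against 24601728 and 28307591 for OE, and TMM factors ran from 0.9763 to 1.023. *RP5-998N21.4* (ENSG00000234571.1) was counted 32 and 33 times in the controls but 2407 and 2808 times in OE, so the labels and the overexpressed gene point the same way. Of 10 adrenergic neuroblastoma markers 9 lay above 1 CPM, which is 1 count in 1000000 of a TMM-scaled library, with *TH* at 0 in all 4 libraries, all 8 mesenchymal markers lay above 1 CPM, and none of 8 markers of other tissues did, with a summed level of at most 0.773 CPM. The summed adrenergic level was 593.7 and 662.9 CPM in the vector control and 1061 and 1005 CPM in OE, while the mesenchymal level was 2781 and 2726 CPM against 3313 and 2360 CPM. All 9 adrenergic markers tested were higher in both OE libraries than in both controls, as were 27.8% of all genes. The mesenchymal sum overlapped between the groups, with 4 of the 8 markers lower in both OE libraries (*CD44*, *SNAI2*, *PRRX1* and *YAP1*; 27.6% of all genes), 3 higher (*FOSL1*, *NOTCH2* and *VIM*) and *FN1* overlapping, and without *VIM*, which differed between the OE libraries (1254 and 376 CPM), the mesenchymal sum was 2433 and 2377 CPM against 2059 and 1984 CPM. The adrenergic markers thus moved with the groups and the mesenchymal ones did so in both directions, and their part in the results below was not tested. In bulk RNA, fewer cells of a kind and less RNA per cell cannot be told apart.

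The largest difference among the G1 genes was a fall of *CDKN2C* (ENSG00000123080.6, chr1:51426417-51440306, hg19, plus strand). Its counts were 1322 and 1171 in the controls against 287 and 295 in OE, which is 56.8 and 49.8 CPM against 11.4 and 10.2 CPM. Both OE libraries lay far below both controls, while replicates differed by at most 1.139-fold. The mean OE level was 20.3% of the control mean, a log2 fold change of -2.30 (SE 0.134, 95% interval -2.68 to -1.92, n = 2 libraries per group, edgeR quasi-likelihood test with Benjamini-Hochberg adjustment over all 20528 tested genes, adjusted p = 0.0376). With any 1 library left out the log2 fold change stayed between -2.40 and -2.21, while the adjusted p was 0.087 to 0.108 (edgeR). In these fits 1 group holds a single library, which is assumed to vary like the other group, and without either control none of the tested genes (0%) passed an adjusted p of 0.05. Every count of the gene was assigned to one transcript, ENST00000262662.1, a coding transcript of 4 exons and 2904 bases, and its other 2 listed transcripts, ENST00000371761.3 and ENST00000396148.1, had 0 counts in all 4 libraries. The annotation also places a long noncoding RNA on the opposite strand over 617 exon bases of *CDKN2C*. That RNA was not among the listed genes and so had no counts of its own, and the use of strand in counting is not given in the sources used here. Neighbours were sought among the tested genes only. The nearest tested gene on the side of lower coordinates was *FAF1*, 478 bases away. It had counts of 787 and 939 in the controls against 901 and 1051 in OE, a log2 fold change of -0.03 (SE 0.124, edgeR adjusted p = 0.919). On the other side the nearest tested gene was the pseudogene *CFL1P2*, at 183154 bases. It had counts of 260 and 261 in the controls against 199 and 245 in OE, a log2 fold change of -0.44 (SE 0.128, edgeR adjusted p = 0.193). *FAF1* overlapped between the groups, while *CFL1P2* was lower in both OE libraries by less than *CDKN2C*.

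Of the 3 windows of *CDKN2C*, 2 are shown because all its counts sat on the transcript of the first, and the second differs most from it in base composition. Each run is a RefSeq promoter window (GRCh38.p14) of 300 bases, from 250 bases before to 50 bases after a start, found by exact match in GRCh37 and given in hg19 coordinates. The first window, chr1:51426167-51426466 on the plus strand, holds the annotated start of ENST00000262662.1. The second, chr1:51434128-51434427 on the plus strand, holds the start of ENST00000396148.1, which had no counts. Lower case is used throughout, since none of the 3 windows holds a match to the E2F words described below.
CDKN2C first start: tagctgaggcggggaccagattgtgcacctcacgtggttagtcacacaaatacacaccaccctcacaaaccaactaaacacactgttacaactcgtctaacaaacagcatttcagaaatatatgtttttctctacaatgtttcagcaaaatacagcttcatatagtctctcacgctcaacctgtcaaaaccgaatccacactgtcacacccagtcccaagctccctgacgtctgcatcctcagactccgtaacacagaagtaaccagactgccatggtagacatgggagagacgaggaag
CDKN2C second start: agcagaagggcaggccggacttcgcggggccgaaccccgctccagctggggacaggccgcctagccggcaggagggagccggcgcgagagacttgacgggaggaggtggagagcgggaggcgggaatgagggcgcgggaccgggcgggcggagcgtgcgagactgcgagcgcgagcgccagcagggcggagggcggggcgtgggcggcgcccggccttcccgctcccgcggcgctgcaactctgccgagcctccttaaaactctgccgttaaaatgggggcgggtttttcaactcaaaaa
The first window is 46.3% G and C with 8 CpG dinucleotides, and the second is 71.3% G and C with 37. The third, chr1:51435667-51435966, at the start of ENST00000371761.3, which also had no counts, is 49.3% G and C with 11, close to the first, against a median of 58.7% over 35116 promoter windows. The counts show where the authors' counting placed the reads, and not a mapped start of transcription.

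The other 2 inhibitors had higher values in both OE libraries. *CDKN1C* (ENSG00000129757.8, chr11:2904443-2907005, minus strand) was barely expressed, with counts of 27 and 48 in the controls against 103 and 105 in OE. These counts are 1.16 and 2.04 CPM against 4.10 and 3.63 CPM, so the groups did not overlap, although the controls themselves differed by 1.762-fold. The log2 fold change was 1.27 (SE 0.347, 95% interval 0.28 to 2.26), with an unadjusted edgeR p of 0.0242 and an adjusted p of 0.179. The nearest tested gene on one side, *SLC22A18* at 13946 bases, had counts of 143 and 339 in the controls against 298 and 209 in OE, which overlapped. On the other side the nearest tested gene was the potassium channel gene *KCNQ1*, at 34108 bases. It had counts of 27 and 27 in the controls against 57 and 63 in OE, with a log2 fold change of 0.94 (SE 0.220, edgeR adjusted p = 0.147). Of the 2 neighbours 1 thus lay higher in both OE libraries, without passing the adjusted test. *CDKN1B* (ENSG00000111276.6, chr12:12838432-12875303, plus strand) had 60.6 and 63.0 CPM in the vector control and 67.6 and 67.0 CPM in OE. The groups lay apart by little, and the log2 fold change of 0.12 had a 95% interval of -0.11 to 0.36 (SE 0.0837, edgeR adjusted p = 0.473).

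**Figure D1:**
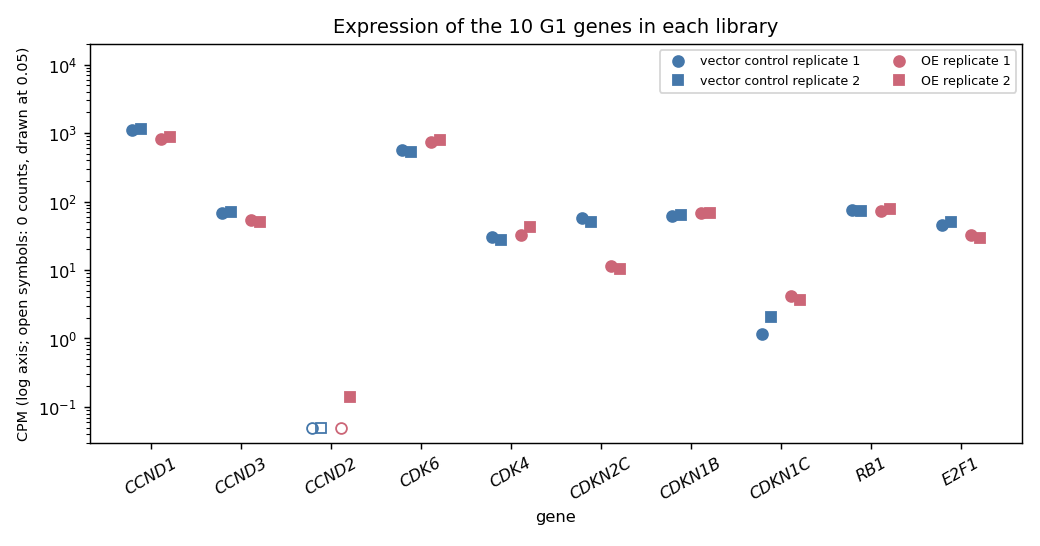
Expression of the 10 G1 genes in each library, in CPM on a log axis, with circles for replicate 1 and squares for replicate 2 (blue, vector control; red, OE). *CDKN2C* sits at 56.8 and 49.8 CPM in the vector control and at 11.4 and 10.2 CPM in OE, *RB1* overlaps between the groups, and *CCND2* has 0 counts in 3 libraries, drawn as open symbols at 0.05.

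Among the D-type cyclins, the regulatory subunits of CDK4 and CDK6, *CCND1* had the highest level and *CCND2* was near 0. *CCND1* (ENSG00000110092.3, chr11:69455924-69469242, plus strand) had counts of 26145 and 27186 in the controls against 20730 and 24957 in OE. Because OE replicate 2 was the deepest library, its count was close to the controls, but scaled to depth both OE libraries were lower, at 826 and 863 CPM against 1123 and 1157 CPM. The log2 fold change was -0.43 (SE 0.0462, 95% interval -0.56 to -0.30), with an unadjusted edgeR p of 0.00098 and an adjusted p of 0.0662. *LTO1*, listed as *ORAOV1*, shares 497 exon bases with *CCND1* on the opposite strand and had 763 to 1202 counts, a small number beside those of *CCND1*. *CCND3* (ENSG00000112576.8, chr6:41902672-42018095, minus strand) had 67.2 and 71.5 CPM in the vector control and 53.6 and 49.5 CPM in OE. The 2 OE libraries were again the lower ones, and the log2 fold change of -0.43 (SE 0.0978, 95% interval -0.71 to -0.15) had an unadjusted edgeR p of 0.0137 and an adjusted p of 0.144. *CCND2* (ENSG00000118971.3, chr12:4378937-4414519, plus strand) was at 0 in both controls and in OE replicate 1, and had 4 counts in OE replicate 2. A count of 0 allows up to 3 counts, so no difference was detectable for *CCND2* at this depth and it was not tested. Such limits cover counting error only.

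Of the kinases, *CDK6* (ENSG00000105810.5, chr7:92234235-92465887, minus strand) had counts of 13266 and 12247 in the controls against 18753 and 22616 in OE. In CPM these are 570 and 521 against 747 and 782, and both OE libraries were the higher ones. The log2 fold change was 0.49 (SE 0.0671, 95% interval 0.30 to 0.68, edgeR adjusted p = 0.0812), and at least 99.88% of the counts in each library lay on one transcript, ENST00000265734.4. *CDK4* (ENSG00000135446.12, chr12:58141510-58149796, minus strand), the other D cyclin kinase, had 30.4 and 27.2 CPM in the vector control and 32.6 and 42.1 CPM in OE. OE replicate 1 was close to the controls and OE replicate 2 stood above them, and the log2 fold change of 0.38 (SE 0.171, 95% interval -0.11 to 0.86, edgeR adjusted p = 0.319) did not pass the test. Without OE replicate 2 it was 0.18, and without OE replicate 1 it was 0.55.

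The counts of *CDK4* and *CCND3* moved between transcripts from library to library. In *CDK4*, ENST00000551706.1, a retained intron transcript, had 383 and 344 counts in the controls and 438 in OE replicate 1 but 2 in OE replicate 2. The full-length ENST00000257904.6, with 8 exons and 1865 bases, had 0, 0 and 53 counts in the same 3 libraries and 1215 counts in OE replicate 2. Restricted to that transcript, which has the highest mean count, the fitted log2 fold change was 12.12, a value that rests on controls at 0 and on OE replicate 2. *TSPAN31*, a gene on the opposite strand that shares 1369 exon bases with *CDK4*, had counts of 665 and 803 in the controls, 741 in OE replicate 1 and 3046 in OE replicate 2. Reads of the 2 overlapping genes cannot be told apart if strand was not used, so the level of *CDK4* is uncertain. In *CCND3* the switch followed the replicate number and not the group: ENST00000372991.4 had 1487 and 1275 counts in both first replicates and 298 and 258 counts in both second replicates, while ENST00000511642.1 had 9 and 0 against 1305 and 1091. Summed over its transcripts, *CCND3* differed between replicates by at most 1.081-fold. *CDKN2C*, *CDKN1B*, *CDKN1C* and *E2F1* had all their counts on 1 transcript each.

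**Figure D2:**
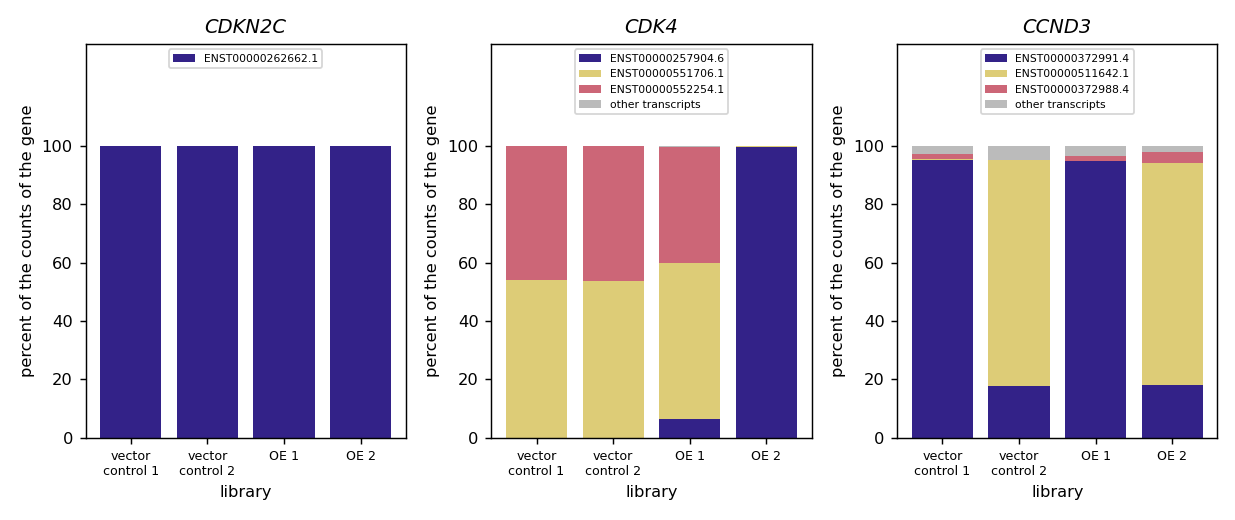
Percent of the counts of *CDKN2C*, *CDK4* and *CCND3* on each listed transcript in each of the 4 libraries, as stacked bars. *CDKN2C* stays on 1 transcript, *CDK4* has 99.84% of its counts on ENST00000257904.6 in OE replicate 2 against 0% in both vector control libraries, and *CCND3* switches between replicates 1 and 2 in both groups.

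*RB1* (ENSG00000139687.9, chr13:48877880-49173572, plus strand), whose protein is the substrate of these kinases, had 75.6 and 73.5 CPM in the vector control and 72.8 and 78.0 CPM in OE. The OE libraries lay on either side of the controls, and the 95% interval of the log2 fold change of 0.02 ran from -0.23 to 0.27 (SE 0.0878, edgeR adjusted p = 0.936). *E2F1* (ENSG00000101412.9, chr20:32263283-32274191, minus strand), which the retinoblastoma protein holds back, had 45.4 and 49.7 CPM in the vector control and 32.4 and 29.8 CPM in OE. Both OE libraries lay below both controls. The mean OE level was 65.4% of the control mean, a log2 fold change of -0.61 (SE 0.108, 95% interval -0.92 to -0.31) with an unadjusted p of 0.0057 and an adjusted p of 0.106 (edgeR). Of its nearest tested genes, *NECAB3* at 1014 bases had counts of 350 and 429 in the controls against 367 and 504 in OE, which in CPM overlapped. *PXMP4* at 16373 bases had counts of 197 and 189 against 148 and 130, a log2 fold change of -0.67 (SE 0.200, edgeR adjusted p = 0.198) that was as large as that of *E2F1*. Over the 18 nearest tested genes of the 9 tested G1 genes, 3 (16.7%) had an unadjusted edgeR p under 0.05 and 7 (38.9%) did not overlap between the groups, against 20.8% and 55.4% of all genes.

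*E2F1* is known to be a target of E2F factors itself, and its promoter window is shown for that reason. It lies at chr20:32274142-32274441 on the minus strand of hg19 and holds the start of the transcript with all the counts. Capitals mark the matches to 4 E2F words, TTTCCCGC, TTTCGCGC, TTTGCCGC and TTTGGCGC, searched on both strands, of which none is the reverse complement of another.
E2F1: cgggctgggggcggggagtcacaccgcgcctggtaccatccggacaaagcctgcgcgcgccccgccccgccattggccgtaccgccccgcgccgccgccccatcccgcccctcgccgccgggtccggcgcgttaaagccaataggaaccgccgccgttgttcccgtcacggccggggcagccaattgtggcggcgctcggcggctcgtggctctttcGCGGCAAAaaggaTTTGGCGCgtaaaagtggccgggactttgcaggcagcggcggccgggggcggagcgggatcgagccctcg
The window holds TTTGCCGC in reverse from base -33 and TTTGGCGC forward from base -20, counted from the start. A match to any of the 4 words was found in 1164 of 35116 promoter windows (3.31%), in 1 of the 12 windows of the G1 genes, in 5 of 31 windows of other G1/S control genes and in 11 of 25 windows of E2F target genes of DNA replication. The 12 windows belong to *CCND3*, *CDK4*, *CDK6*, *CDKN1B*, *CDKN2C*, *E2F1* and *RB1*, and no window was used for *CCND1*, *CCND2* and *CDKN1C*. Not every window holds the start of a counted transcript: 2 of *CDKN2C*, 1 of *CCND3* and that of *RB1*, which lies inside the gene, do not. A match describes letters in a window and is not a binding site.

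Counted together, none of the 9 tested G1 genes passed the thresholds of the study, an adjusted p under 0.01 with an absolute log2 fold change above 0.5, in edgeR, where 0% of all tested genes passed. At an adjusted p under 0.05, 1 gene was called (*CDKN2C*), against 0.594% of all genes, and with any 1 library left out 0 were, where 0% of all genes were called without either control, 0.365% without OE replicate 1 and 0.585% without OE replicate 2. At an unadjusted p under 0.05 there were 6, against 20.8% of all genes: *CDK6* and *CDKN1C* were higher (10.1% of all genes in that direction), and *CDKN2C*, *CCND1*, *E2F1* and *CCND3* were lower (10.7%). In CPM the OE libraries lay beyond both controls in 8 of 9 genes, 4 higher and 4 lower, against 55.4% of all genes (27.8% higher and 27.6% lower). The one gene with overlapping groups in CPM was *RB1*. Per length of transcript, a scale described below, *CDK4* overlapped and *RB1* did not.

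DESeq2, the tool the study names, called 3 of the 9 at the same thresholds, against 8.77% of all genes. *CDKN1C* was higher (4.35% of all genes in that direction), with a DESeq2 adjusted p of 0.00959 near the threshold, and *CDKN2C* and *E2F1* were lower (4.42%). At any fold change, an adjusted p under 0.01 was reached by 6 of the 9 in DESeq2, against 13.8% of all genes, and *CCND1*, *CDK6* and *CCND3* were the added ones. The median log2 fold change of the 9 was 0.02, against 0.01 over all genes, with 5 positive and 4 negative values. The G1 genes thus had differences in both directions with no common shift.

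**Figure D3:**
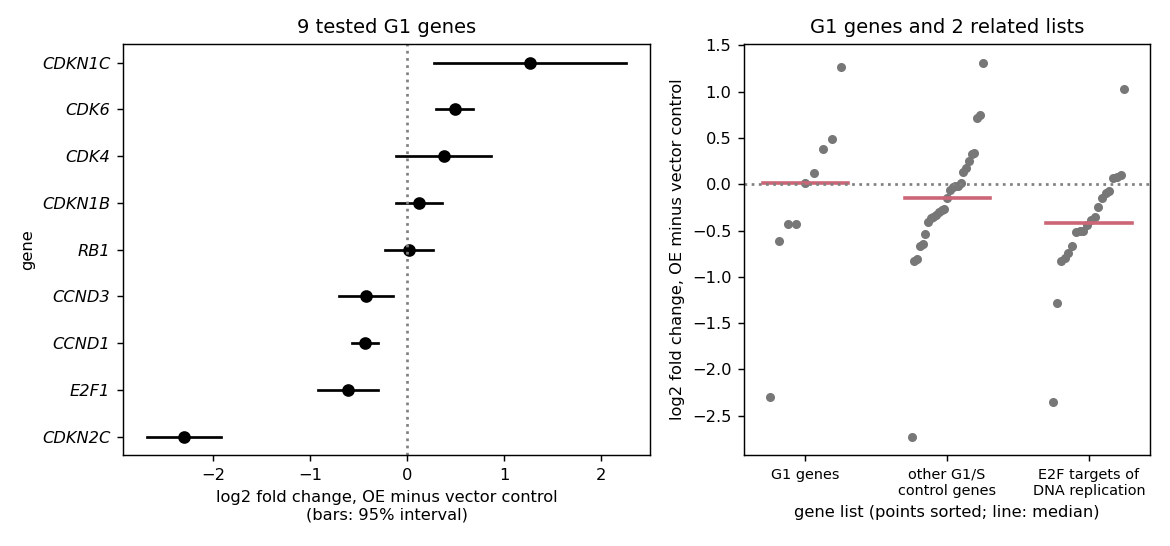
Left, log2 fold changes of the 9 tested G1 genes with 95% intervals, OE minus vector control, from *CDKN2C* at -2.30 to *CDKN1C* at 1.27. Right, the log2 fold changes of each list as points sorted by value, with red lines at the medians of 0.02 for the G1 genes, -0.15 for the other G1/S control genes and -0.42 for the E2F target genes.

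Levels of different genes were compared per length, as counts per kilobase of the listed transcripts scaled to 1000000 in each library, over transcripts with a known length (93.19 to 93.69% of all counts). In the vector control the order of the mean per-length levels was *CCND1* (564), *CDK6* (94.0), *CCND3* (67.5), *CDK4* (66.0), *CDKN1B* (51.2), *CDKN2C* (36.7), *RB1* (36.6), *E2F1* (35.3), *CDKN1C* (1.65) and *CCND2* (0). *CCND3* and *CDK4* overlapped in that order, as did *CDKN2C*, *RB1* and *E2F1*. In OE the order was *CCND1* (417), *CDK6* (139), *CDK4* (60.9), *CDKN1B* (58.2), *CCND3* (50.8), *RB1* (40.0), *E2F1* (24.1), *CDKN2C* (7.76), *CDKN1C* (4.16) and *CCND2* (0.0225). *CDKN2C* went from the level of *RB1* and *E2F1* to one below both, whereas *CDK4*, at 74.0 and 47.7, overlapped with *CDKN1B* and *CCND3*. Per length *CDK4* also overlapped between the groups, with 70.5 and 61.5 in the vector control, and its mean was lower in OE. In CPM both OE libraries were higher, so the direction of *CDK4* depends on the scaling.

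The make-up of the 3 inhibitors among the G1 genes differed between the conditions. *CDKN2C* made up 43.2% and 38.7% of the summed per-length level of the 3 inhibitors in the vector control and 11.6% and 10.6% in OE. *CDKN1B* made up 55.5% and 58.9% in the vector control and 82.2% and 83.8% in OE. The summed level of these 3 was 91.7 and 87.5 in the vector control and 70.2 and 70.1 in OE. Other CDK inhibitors were expressed and are not part of these shares. *CDKN1A* had 317 and 1131 CPM in the vector control and 412 and 413 CPM in OE. *CDKN2A* had 43.7 and 48.2 CPM in the vector control and 48.1 and 39.6 CPM in OE. Both overlapped between the groups, and *CDKN2B* and *CDKN2D* are described below. The per-length level of *CDK6* was 2.51 and 2.62 times that of *CDKN2C* in the controls and 16.5 and 19.4 times in OE. That of *CCND1* was 5.66 and 6.37 times that of *CDK6* in the controls and 3.005 and 3.004 times in OE. The D cyclins summed to 631.9 and 630.0 in the vector control and 456.9 and 478.4 in OE, and *CCND1* made up 87.98 to 90.24% of them in all 4 libraries. For each of these ratios both OE libraries lay beyond both controls except for the *CCND1* share, which overlapped. These ratios were not tested.

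**Figure D4:**
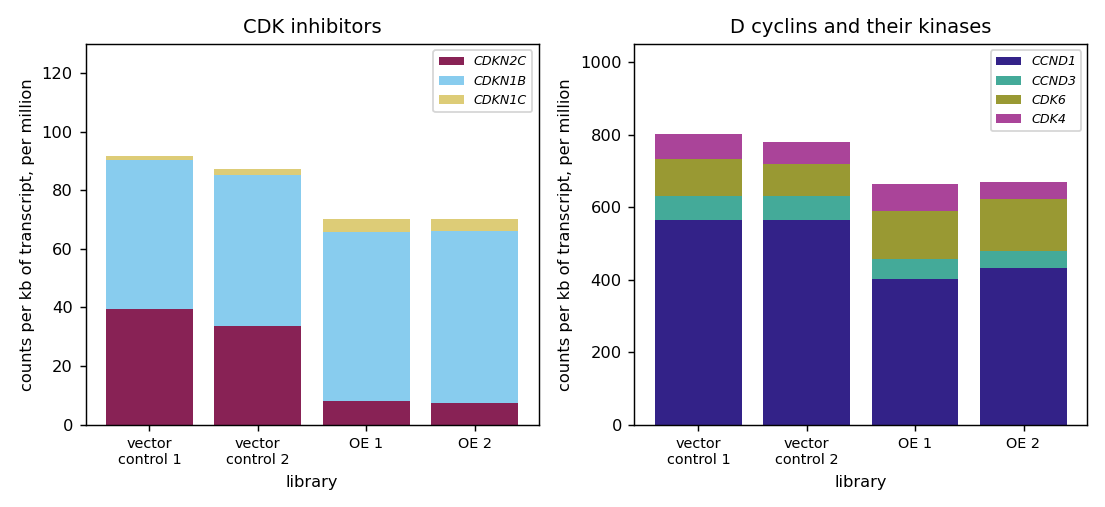
Per-length levels (counts per kilobase of transcript, scaled to 1000000) stacked for the 3 inhibitors (left) and for the D cyclins and their kinases (right) in each of the 4 libraries. *CDKN2C* falls from 39.6 and 33.8 in the vector control to 8.11 and 7.42 in OE, while *CDKN1B* stays between 50.9 and 58.7.

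The genes that act beside or after these 10 were read from 2 lists. Among other G1/S control genes, 26 symbols with 28 gene IDs, 27 were tested, and their fold changes had a median of -0.15 on the log2 scale, 9 positive and 18 negative, against 0.01 over all genes. The median log2 CPM of the list varied between replicates with a SD of 0.211. At an unadjusted p under 0.05, 2 were higher and 5 lower, which is 25.9% of the list against 20.8% of all genes, and the groups lay apart in 5 higher and 9 lower, which is 51.9% of the list against 55.4%. These summed shares are near those of all genes. At an adjusted p under 0.05 the one called was *E2F4*. *E2F4*, an E2F factor known mainly as a repressor in resting cells, rose from 66.5 and 68.6 CPM to 173 and 163 CPM, a log2 fold change of 1.31 (SE 0.0797, edgeR adjusted p = 0.0376). With any 1 library left out its log2 fold change was 1.27 to 1.36 and its edgeR adjusted p was 0.0779 to 0.123, and on its transcript with the highest mean count alone the values were 4.56 and 0.535. *E2F1* and *E2F4* thus had differences of opposite sign. *CCNA2*, the S-phase cyclin A2, had 122 and 109 CPM in the vector control and 67.0 and 63.6 CPM in OE, with a log2 fold change of -0.83 (SE 0.100, edgeR adjusted p = 0.0743). The activator *E2F2* had a log2 fold change of -0.64 (adjusted p = 0.128) and *CDKN2D*, an inhibitor of the same family as *CDKN2C*, one of -0.53 (adjusted p = 0.158), both lower in both OE libraries. The drop of *CDKN2D*, from 16.6 and 18.1 CPM to 12.6 and 11.3 CPM, was smaller than that of *CDKN2C*, and the difference between them was not tested. *CDKN2A* and *CDKN2B*, also of that family, overlapped between the groups, with log2 fold changes of -0.07 and 0.25.

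All 20 E2F target genes of DNA replication were tested, and they had a median log2 fold change of -0.42, with 4 positive and 16 negative, where the median log2 CPM of the list had a SD of 0.215 between replicates. None passed an adjusted p of 0.05 in edgeR, 6 (30%) were lower and 0 higher at an unadjusted p under 0.05, against 10.7% and 10.1% of all genes, and the groups lay apart in 11 (55%), all lower, against 27.6% lower and 27.8% higher of all genes. With the replicate number added to the edgeR fit as a block, 3 of the 20 had an unadjusted p under 0.05, close to the 14.9% of all genes. DESeq2 called 3 (15%), all lower, at the thresholds of the study, against 4.42% of all genes. The genes with the smallest p were *UHRF1*, a factor that maintains DNA methylation, with a log2 fold change of -0.80 (SE 0.106, edgeR adjusted p = 0.0792), and *RRM1*, a subunit of ribonucleotide reductase, with one of -0.75 (SE 0.105, adjusted p = 0.0831). The origin recognition subunit *ORC1* (-0.83, adjusted p = 0.103) and the helicase subunit *MCM4* (-0.51, adjusted p = 0.190) followed. The log2 fold change of *MCM4* was -0.34 without vector control replicate 2 and -1.49 on its transcript with the highest mean count alone (edgeR adjusted p = 0.886). Replicates differed by over 2-fold in 4 of the 20 targets and in 6 of the 27 control genes, up to 162.7-fold for *FEN1*, as they did in 19.2% of all genes, and no tested G1 gene exceeded 1.762-fold. Without those genes the medians were -0.37 for the targets and -0.27 for the control genes.

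The genes with the pattern most like that of *CDKN2C*, by Euclidean distance of centred log2 CPM over the 4 libraries among the 11460 genes averaging 10 CPM or more, were *NFAT5* (distance 0.237), *ABCF2* (0.289) and *SCPEP1* (0.297). *NFAT5* had counts of 7087 and 6471 in the controls against 1885 and 1849 in OE. Their log2 fold changes were -2.06, -2.25 and -2.35, and that of *ABCF2* was -14.02 on its transcript with the highest mean count alone, so its value depends on how reads were placed.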

How the data were processed

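RNA was extracted from transduced SK-N-SH cells and sequenced as paired-end Illumina libraries. The authors used FastQC for quality control, Trimmomatic for trimming and Bowtie2 for mapping to hg19. Per the labels, the processing notes also name Bowtie2 2.0.4, Picard 2.21.6, StringTie 2.1.6 and DESeq2. The deposited values are whole-number counts per transcript with no normalization. The counting tool, the annotation release and the use of strand are not given in the sources used here.

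Groups were taken from the treatment label, since the control titles read WT where the treatment names the empty vector. Counts were summed per gene. Genes kept by filterByExpr (20528) were scaled by TMM and tested with the quasi-likelihood test of edgeR 4.0.16 in R 4.3.3, 2 libraries against 2, with Benjamini-Hochberg adjustment. A SE is the absolute log2 fold change divided by the square root of F. DESeq2 1.42.0 and limma-voom (limma 3.58.1) were alternatives, beside other normalizations, filters, a replicate block, left-out libraries, removal of mitochondrial genes and the transcript with the highest mean count. The code was tested on simulated data. Gene positions and transcript lengths came from GENCODE v44 lifted to GRCh37, and promoter windows from RefSeq.

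The members and lists were chosen with earlier results of these data known. Named genes were all 10 members, the 4 genes with the smallest unadjusted p of each of the 2 lists, *RP5-998N21.4*, and the 3 genes nearest in pattern to the tested member with the largest fold change. *FAF1*, *CFL1P2*, *KCNQ1*, *SLC22A18*, *NECAB3*, *PXMP4*, *TSPAN31*, *LTO1*, *FEN1*, *CDKN1A*, *CDKN2A*, *CDKN2B* and the mesenchymal markers were named after their values were seen. Library depth was 23785164 to 28307591 counts. Reads carry no molecular identifiers.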

Additional observations from a re-analysis of the deposited data

How the results depend on the processing

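Over the 13 alternatives for each tested G1 gene, 108 log2 fold changes kept their direction and their side of an unadjusted p of 0.05. *CDKN2C* stayed between -2.40 and -2.21, with an adjusted p from 8.08e-49 in DESeq2 to 0.277 with the replicate block in edgeR, and *CCND1*, *CDK6*, *CDKN2C* and *E2F1* were under an unadjusted p of 0.05 in all 13. *RB1* ran from -0.034 to 0.066 over the left-out libraries, with -0.0078 without vector control replicate 2, and was -0.015 on its transcript with the highest mean count. *CCND3* lost the unadjusted call at -0.39 without vector control replicate 2, -0.37 without OE replicate 2 and -0.36 on that transcript alone, and *CDKN1C* at 1.18 without OE replicate 1 and 1.36 without OE replicate 2. *CDK4* gained it at 0.55 without OE replicate 1 and was 0.18 without OE replicate 2. Of the other named genes, 205 values kept direction and call, 22 lost the call, *NECAB3* ran from -0.19 to 0.088 over the left-out libraries (0.066 without OE replicate 1), *SLC22A18* ran from -0.60 to 0.63 over the left-out libraries (0.21 without OE replicate 2) and was 0.23 on its transcript with the highest mean count, and *FAF1* turned to 0.0098 with upper-quartile normalization and, over the left-out libraries, ran from -0.15 to 0.091. At the thresholds of the study, DESeq2 called 3 of the G1 genes, 4 of the other G1/S control genes and 3 of the E2F target genes (33.3%, 14.8% and 15%, against 8.77% of all genes), where edgeR called 0. At an adjusted p under 0.05, DESeq2 called 6, 6 and 5 of them (19.8% of all genes) and limma-voom 2 of the G1 genes (1.46% of all genes), against 1, 1 and 0 in edgeR (0.594%), and with the transcript of the highest mean count edgeR called 0 G1 and 0 other G1/S genes, where 9 genes in all passed. Over the left-out libraries these edgeR counts were 0 for the G1 genes, 0 for the other G1/S control genes and 0 to 1 for the E2F target genes. The other G1/S control genes at an unadjusted p under 0.05 numbered 3 to 9 of 27 over the left-out libraries, the lowest without OE replicate 2, against 14.9 to 16.8% of all genes over these fits. The replicate block left 0 G1 genes and 0 other G1/S control genes at an adjusted p under 0.05, where 0% of all genes were called, and 4 of 27 other G1/S control genes and 3 of 20 E2F target genes at an unadjusted one, close to the 14.9% of all genes. The numbers were not read as pairs. Over the tested genes, same-numbered libraries deviated with a correlation of -0.0216. This value cannot show whether such libraries were prepared together, and the transcripts of *CCND3* did follow the replicate number. The medians without genes whose replicates differ by over 2-fold and the mesenchymal sum without *VIM* were chosen after seeing the data. The causes of these changes were not tested. Low counts limit *CDKN1C* and *CCND2*, and the placement of reads on transcripts limits *CDK4*.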
